A study of Mus musculus with 21 samples.

Results

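Epithelial cells and fibroblasts sorted from the mouse lung at postnatal day 7 (P7) were compared gene by gene, epithelium minus fibroblasts. The comparison holds 4 of the series' 21 libraries, chosen by their labels alone: 2 of epithelium and 2 of fibroblasts. All mice were C57BL/6 and carried a Col1a2-GFP transgene, in which the promoter of a collagen gene drives green fluorescent protein, and no further treatment or allele is named. After enzymatic digestion of the lung, live cells negative for CD31, CD45, Ter119 and CD146 (surface markers of endothelium, leukocytes, red cells and perivascular cells) were sorted. Epithelium was taken as Epcam-positive and GFP-negative, fibroblasts as GFP-positive and Epcam-negative. The fibroblasts are therefore those cells in which the transgene is active, not all mesenchymal cells of the lung. The labels number the libraries but name no separate animals, batches or dates, so the p-values below measure the spread between these libraries, which may be technical. Matched pairs of groups at E18.5, P0.5, P2 and P28 (16 libraries, with no GFP gate named for epithelium at E18.5) serve below as the comparator.

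As background, the lung at P7 is forming alveoli: ridges of tissue called septa grow into the air sacs and divide them. Alveolar type 2 cells make surfactant, the lipid and protein film that keeps air sacs open, and thin type 1 cells form the gas-exchange surface. Fibroblasts in the septa lay down collagen and elastin, and the cell types exchange signals such as Sonic hedgehog and platelet-derived growth factor, sent by epithelium and received by mesenchyme, and fibroblast growth factors, many of which pass the other way.

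Each library counts short tags taken near the 3' end of polyadenylated transcripts (3'SAGE-seq) after amplification of the RNA. The P7 libraries held 2146071 to 5602529 reads, recovered from the deposited normalised values, and 15434 to 17580 genes above 0. Levels are joint CPM: recovered reads per 1000000 over the 20004 genes listed in the tables of both cell types, with all 20 libraries of the 5 shared stages scaled together. Differences are given as log2(joint CPM + 1), epithelium minus fibroblasts, ± SE, with n = 2 libraries per group throughout. A count of 0 in a group was taken to allow up to 3 reads over its 2 libraries, and folds against such a group are lower bounds. These bounds and the 95% counting intervals given for 1 to 3 reads cover counting error only, because amplified reads are not independent molecules. Values of library 1 precede those of library 2.

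The sorted populations carried the transcripts of the genes used to sort them. Epcam, the epithelial adhesion molecule of the gate, stood at 63.3 and 337 joint CPM in epithelium and 0.254 and 0 in fibroblasts. The 2 epithelial libraries thus differed from each other in Epcam but both lay above the fibroblasts. Col1a2, whose promoter drives the transgene, gave 2715 and 2642 in fibroblasts and 7.75 and 10.6 in epithelium. Ptprc, which encodes CD45, had no reads in any of the 4 libraries. Mcam (CD146) was at or below 1.52 in each library, and Pecam1 (CD31) was too low to be tested. Lists of markers of the cell types that the gates remove were summed in each library. A mesothelial list was summed too, although no gate named here removes mesothelium. The pericyte sum was 6.38 to 7.93 in epithelium and 10.7 to 13.1 in fibroblasts. For leukocyte genes the summed level was 28.4 to 43.3 in epithelium and 0 to 5.58 in fibroblasts. In epithelium that sum was almost all Lcp1 (36.5 and 26.9), an actin-bundling protein. The sums hold only genes listed for both cell types. Csf1r of the leukocyte list, with 103 and 44 reads in epithelium, is therefore not in them. The endothelial sum was 175.1 to 196.2 in epithelium and 27.7 to 31.5 in fibroblasts. Most of it in epithelium was Esam, an adhesion molecule of tight junctions (167 and 192 against 4.31 and 4.38, 5.07 ± 0.24), while Cdh5, Cldn5 and Vwf had no read in any of the 4 libraries. The erythroid sum was 52.3 to 289 in epithelium and 90.6 to 173 in fibroblasts, with no member called. The mesothelial sum was 10.6 to 34.9 in epithelium and 397 to 523 in fibroblasts, most of it Upk1b. In these bulk libraries, fewer cells of a type and less RNA per cell cannot be told apart.

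Of 13386 genes tested, 4746 (35.5%) differed between the cell types at an adjusted p under 0.05 in limma. There were 2627 genes (19.6%) higher in epithelium and 2119 (15.8%) higher in fibroblasts, and the median difference over all genes tested was 0.03. Each count of list members called at P7 below stands against these shares, and some counts lie near them. Differences were often large: 1106 genes were over 4-fold higher in epithelium and 991 over 4-fold higher in fibroblasts. When each of the 4 libraries was left out in turn, 2974 of the genes kept their call in all 4 fits. For a gene below whose call did not, the libraries and the adjusted p without them are given.

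**Figure D1:**
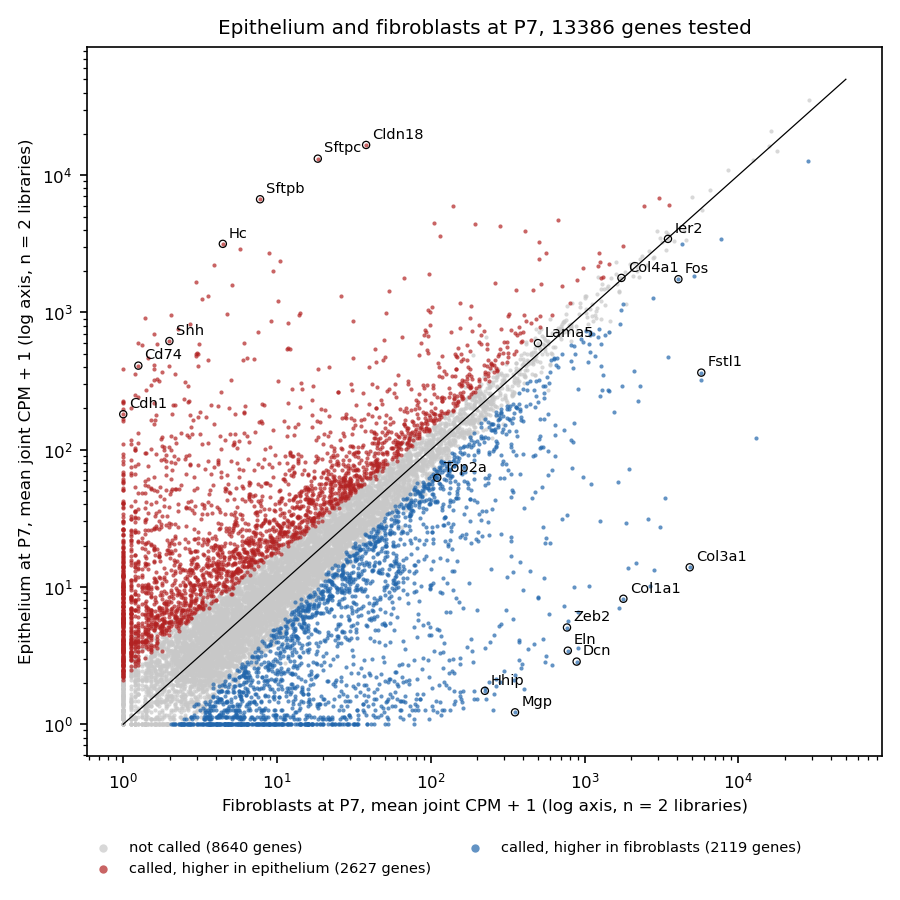
Mean level of each tested gene in fibroblasts (horizontal) and epithelium (vertical) at P7, in joint CPM + 1 on log axes, 2 libraries per group; the line marks equal levels. Red points are the 2627 genes higher in epithelium and blue points the 2119 higher in fibroblasts; Sftpc, Sftpb and Cldn18 lie far above the line, Col3a1, Dcn and Mgp far below it, and Ier2 and Top2a near it.

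Sftpb and Sftpc, which encode surfactant proteins, differed most toward epithelium. Sftpc (chromosome 14, 70520949 to 70524081, minus strand, GRCm38), which encodes a hydrophobic surfactant protein, had 12628 and 13761 joint CPM in epithelium against 24.9 and 9.96 in fibroblasts, a difference of 9.61 ± 0.42 (adjusted p = 1.2e-13). Sftpb (chromosome 6), its partner in the surfactant film, had 5693 and 7659 against 9.13 and 4.38 (9.80 ± 0.43, adjusted p = 1.1e-13). For both genes the values of the cell types did not overlap. The 10 largest differences also held Hc, the fifth complement component (2713 and 3606 against 3.30 and 3.59), and Slco4c1, an organic anion transporter (1123 and 684 against 0.761 and 0). With them were Lyz1, Pla2g1b, Sfta2, Lgi3, Atp6v1c2 and Ly6c2, with differences of 8.80 to 9.20. Lyz1 shares sequence with Lyz2 and Ly6c2 with its neighbour in the same family, so reads of these genes could have been split between copies. Of the 20 listed alveolar type 2 genes 20 were higher in epithelium, with a median difference of 8.17, where 19.6% of all tested genes were. Abca3, the lipid pump of the lamellar body, had 436 and 465 against 1.52 and 3.59. Lamp3, a lamellar body membrane protein, was 772-fold higher in epithelium (95% counting interval 213 to 6376). The smallest difference in the list was that of Il33, an alarmin cytokine, at 4.07 ± 0.36.

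The lipid synthesis that feeds surfactant was higher in epithelium at several steps. Of 10 fatty acid synthesis genes 9 were higher there (median 2.71), 8 of them in every fit with 1 library left out. Scd1, a fatty acid desaturase, had 3027 and 2406 joint CPM against 7.87 and 7.97, a difference of 8.24 ± 0.31. Its relative Scd2 differed less, with 3043 and 3529 against 485 and 522 (2.70 ± 0.16). Fasn, fatty acid synthase, had 188 and 204 against 14.5 and 22.3. Elovl6, a fatty acid elongase, was the exception, with 4.31 and 10.8 in fibroblasts and 0 and 0.266 in epithelium, 64.4-fold higher in fibroblasts (95% counting interval 11 to 2599.5). Cholesterol synthesis followed with smaller differences: 12 of 16 genes were higher in epithelium and none in fibroblasts, with a median of 1.31. Fdps, a prenyl diphosphate synthase, had the largest (3.28 ± 0.38) and Insig1, an ER anchor that restrains sterol synthesis, the smallest of those called (0.64 ± 0.19, not called with 1 library left out, at adjusted p = 0.1 without epithelial library 1 and 0.12 without fibroblast library 2). The regulator Srebf2 differed by 1.62 ± 0.21. Of the 8 phosphatidylcholine genes tested, Chka (2.55 ± 0.21), Pcyt1a (1.69 ± 0.33, moved to 1.10 without fibroblast library 2) and Lpcat1 (6.91 ± 0.29) were higher in epithelium. The choline transporter Slc44a1 was higher in fibroblasts (-1.31 ± 0.28).

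Alveolar type 1 genes were higher in epithelium for 17 of 18 members (median 5.15). Ager, a receptor on the basal side of type 1 cells, had 436 and 336 joint CPM against 0.761 and 0.398. Aqp5, a water channel, had 1855 and 2119.8 against 8.88 and 7.97. Cav1, which coats membrane pits, was the member not called, with 26.3 and 25 in epithelium and 38.1 and 28.3 in fibroblasts. For Cav1 both fibroblast values lay above both epithelial values, without passing the test. Channels and pumps that clear lung fluid were also higher in epithelium in 10 of 10 cases (median 5.0). Scnn1a, a subunit of the epithelial sodium channel, had 737 and 695 against 5.07 and 7.97. Atp1b1, a subunit of the sodium pump, had 6384 and 5578 against 169.8 and 108.

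Airway genes were also found on the epithelial side. Scgb1a1, the club cell secretoglobin, had 321 and 391 joint CPM against 0.761 and 1.59, and Cyp2f2, a club cell cytochrome, had 101 and 143 against 0.761 and 0.797. Of 7 tested club cell genes 6 were higher in epithelium (median 4.39, or 6.09 with Scgb3a1 at its lower bound). Scgb3a1, another secretoglobin, differed between the epithelial libraries themselves, 128 and 1.60, with no fibroblast read. It was not called with 1 library left out, at adjusted p = 0.12 without epithelial library 1 and moved to 7.01 without epithelial library 2. Ciliated cell genes were higher in epithelium in 5 of 5 cases, among them Foxj1, the master regulator of motile cilia (3.97 ± 0.48). Cfap126 was not called with 1 library left out, at adjusted p = 0.18 without epithelial library 1, 0.075 without epithelial library 2, 0.072 without fibroblast library 1 and 0.16 without fibroblast library 2. Tekt1 was not called with 1 library left out, at adjusted p = 0.056 without epithelial library 2.

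Genes of epithelial junctions and keratins separated the cell types almost without exception. Of 18 tested, 17 were higher in epithelium, with a median difference of 5.80. Cdh1, which encodes E-cadherin, had 188 and 173 joint CPM in epithelium and no read in fibroblasts, at least 391-fold higher. Cldn18, the alveolar claudin of tight junctions, had 18034 and 15173 against 38.1 and 35.9, and Krt7, a simple epithelial keratin, 5204 and 3691 against 127 and 78.9. Esrp1, a splicing factor that sets epithelial exon choice, was 2368-fold higher in epithelium (95% counting interval 425 to 93550.3). The exception was Prom1, a protein of membrane protrusions, with 323 and 301 in fibroblasts and 7.40 and 14.1 in epithelium (-4.80 ± 0.39, adjusted p = 2.1e-09).

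Because these genes moved together, their promoters were read from RefSeq (GRCm38.p6), together with those of other tested genes. The letters CACCTG, an E-box that ZEB and SNAI repressors are known to bind, were searched on both strands in the 250 bases before each start, a motif chosen after the expression values were seen. The hexamer (or CAGGTG, its reverse complement) was present in 18.5% of the 9385 tested genes with a promoter in the table. It was present in 26.6% of those called higher in epithelium and 16.5% of those called higher in fibroblasts. Among genes more than 4 log2 units higher in epithelium the share was 35.4% (81 of 229), and among those as far toward fibroblasts 18.8% (37 of 197). Of 15 listed junction and keratin genes with a promoter 11 held it, among them Prom1, which was higher in fibroblasts, and Ocln and Tjp3, which were not tested. Of the 12 called higher in epithelium 8 held it. A second E-box, CAGCTG, was present in 14.4% of all, 15.2% of those called higher in epithelium and 18.9% of those called higher in fibroblasts. Among the genes more than 4 log2 units toward fibroblasts the share of CAGCTG was 26.9% (53 of 197), and among those as far toward epithelium 15.7% (36 of 229). CAGCTG was present in 1 of the 15 junction and keratin genes. CAAGTG, another of the motifs, was present in 20.1% (46 of 229) of the genes far toward epithelium and in 11.7% of all. TATAAA was present in 7.99% of all and in 15.7% (31 of 197) of the genes far toward fibroblasts. Among those far toward epithelium its share was 10.9% (25 of 229). Mean GC content of the sets was 58.7% to 61%. In all 9 motifs were searched, and a match is a run of letters and not a bound site. The 200 bases before the start of 3 genes with repeated matches are shown, 5′ to 3′ on the gene's strand, with the matches in capitals: Crb3, a polarity protein (chr17:57062001-57062200, plus strand), Spint2, a protease inhibitor (chr7:29281978-29282177, minus strand) and Rab25, an epithelial vesicle GTPase (chr3:88548280-88548479, minus strand).
Crb3: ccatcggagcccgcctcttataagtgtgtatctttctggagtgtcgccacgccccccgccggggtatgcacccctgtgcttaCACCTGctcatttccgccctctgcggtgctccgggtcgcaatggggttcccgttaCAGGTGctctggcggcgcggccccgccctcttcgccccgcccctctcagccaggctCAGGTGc
Spint2: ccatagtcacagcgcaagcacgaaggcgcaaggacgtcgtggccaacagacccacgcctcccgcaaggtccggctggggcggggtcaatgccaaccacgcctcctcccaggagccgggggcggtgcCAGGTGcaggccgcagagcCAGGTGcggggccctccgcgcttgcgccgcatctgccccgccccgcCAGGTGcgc
Rab25: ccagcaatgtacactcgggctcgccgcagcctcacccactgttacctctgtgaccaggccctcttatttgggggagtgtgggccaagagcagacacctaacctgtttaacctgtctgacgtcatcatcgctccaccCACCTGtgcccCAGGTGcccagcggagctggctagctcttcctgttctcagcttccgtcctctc

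These 3 genes were far higher in epithelium. Crb3 had 524 and 489 joint CPM in epithelium and 2.03 and 1.99 in fibroblasts. Spint2 had 926 and 1045 and 13.7 and 12.4. Rab25 had 19.2 and 14.6 and no fibroblast read, at least 37.4-fold higher. Transcripts of Zeb2, Snai2 and Zeb1, factors known to bind the hexamer, lay on the fibroblast side. The part of these factors in the differences of the genes above was not tested. Zeb2 had 741 and 794 in fibroblasts and 4.40 and 3.72 in epithelium (-7.25 ± 0.21, adjusted p = 4.9e-16), and Snai2 454 and 328 against 2.47 and 1.06. Zeb1 had 2.03 and 12 in fibroblasts and no epithelial read, at least 18.5-fold higher, a bound that rests mostly on library 2 (moved to -1.62 without fibroblast library 2).

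Transcription factors separated the cell types in both directions. Of 19 epithelial factors tested 19 were higher in epithelium (median 4.18), and of 22 mesenchymal factors 20 were higher in fibroblasts (median -4.72, or -5.24 with 9 genes at their bound). Nkx2-1, which specifies lung epithelium, had 853 and 792 joint CPM against 3.04 and 0.398. Elf5 had 385 and 356 against 0.761 and 0.797 and Irx3 943 and 799.7 against 8.37 and 7.97. At the low end of the epithelial list were Foxp1 (1.52 ± 0.29, and moved to 0.98 without fibroblast library 1) and Id2 (1.55 ± 0.35). Between them lay Irx1, Irx2, Tfcp2l1, Grhl2, Etv5, Cebpa, Ehf, Hopx, Sox9, Gata6, Klf5, Foxa2 and Foxp2, with differences of 2.32 to 6.22.

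On the fibroblast side the T-box factor Tbx2 had 629.5 and 434 joint CPM against 0.529 and 5.85, the largest difference among the mesenchymal factors (-7.34 ± 0.51). Tbx4, which marks lung mesenchyme, had 34.5 and 29.5 and no epithelial read, at least 102-fold higher. Tcf21, a factor of lipid-bearing fibroblasts, had 283 and 167 against 2.82 and 2.39. Prrx1 (49 and 86.1 against 2.11 and 0), Meox2 (91.9 and 65.7 against 1.06 and 0) and Osr1 (137 and 122 against 2.47 and 0.266) lay on the same side. Tbx3, Tbx5, Gli1, Gli2, Foxf1, Foxf2, Prrx2, Ebf1, Heyl, Mef2c and Hic1 were also called, each with fewer than 3 joint CPM in both epithelial libraries. Gli3 and Nfatc4 were not called. The Hox genes, which record position along the body axis, showed the same side: 11 of 11 tested were higher in fibroblasts (median -3.52, or -4.66 with 5 genes at their bound), where 15.8% of all tested genes were. Hoxb5 had 90.3 and 82.5 against 2.82 and 0.266, and Hoxa5, required for lung development, 48.2 and 36.3 against 0.529 and 0.

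**Figure D2:**
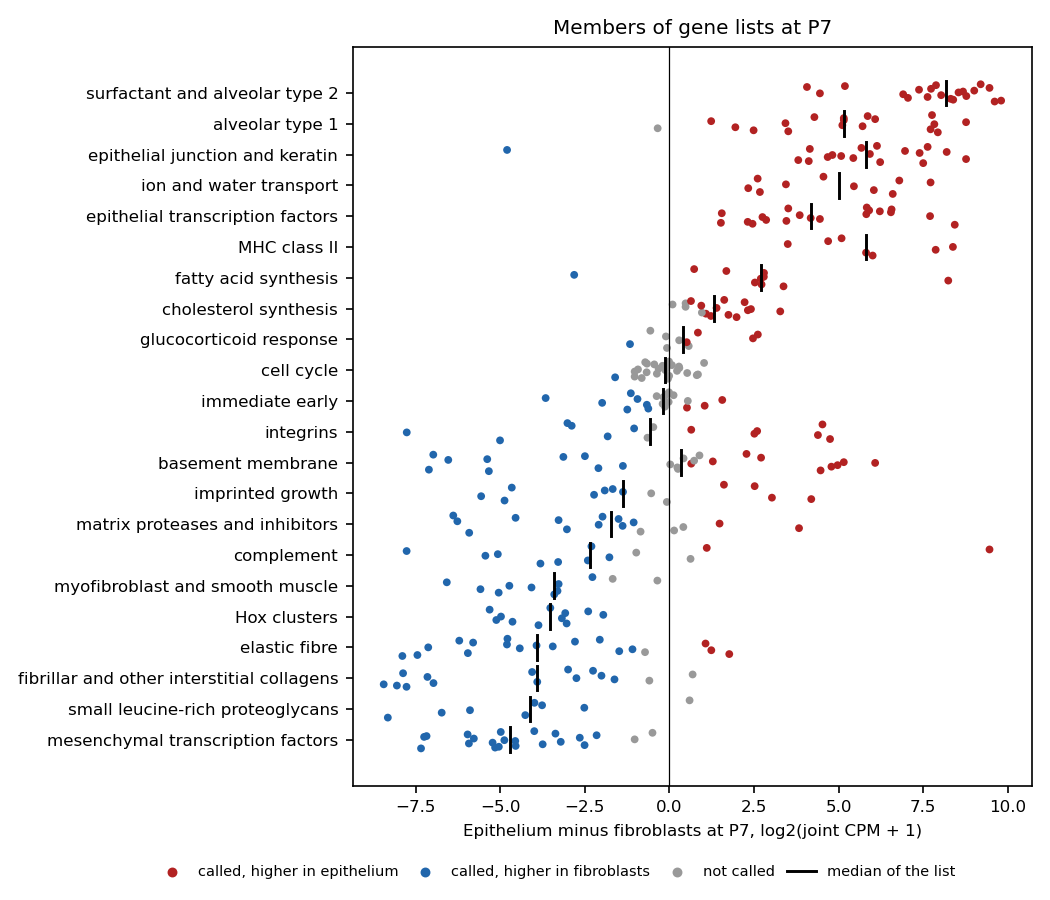
Difference between epithelium and fibroblasts at P7 for each tested member of 22 gene lists, in log2(joint CPM + 1); each point is a gene, colour shows the call and the bar the median of the list. Type 2, type 1 and junction genes lie to the right (medians 8.17, 5.15 and 5.80), collagens and mesenchymal factors to the left (-3.90 and -4.72), and cell cycle genes around 0 (-0.12).

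Transcripts of the interstitial matrix lay on the fibroblast side. Col3a1 (chromosome 1, 45311538 to 45349706, plus strand, GRCm38), a fibrillar collagen chain, had 5218 and 4430.5 joint CPM in fibroblasts and 11.5 and 14.4 in epithelium, the largest difference on that side (-8.44 ± 0.25, adjusted p = 5.8e-16). Col1a1 had 1815 and 1758 against 7.22 and 7.18. Of 15 interstitial collagen genes tested 13 were higher in fibroblasts and none in epithelium (median -3.90). Col13a1, a membrane collagen, differed by -7.87 ± 0.23, while the chains of collagen VI were unequal: Col6a3 differed by -7.15 ± 0.34 but Col6a1 by -1.62 ± 0.17 and Col6a2 by -2.75 ± 0.18. Col11a1 was not called with 1 library left out, at adjusted p = 0.19 without epithelial library 1, 0.1 without epithelial library 2 and 0.3 without fibroblast library 1. Col15a1 was not called with 1 library left out, at adjusted p = 0.12 without epithelial library 1. Among the leucine-rich proteoglycans, which coat collagen fibrils, 7 of 8 were higher in fibroblasts. Dcn (decorin) had 1027 and 747 against 1.06 and 2.66 and Bgn (biglycan) 1105 and 1022 against 10.9 and 7.44. Mgp, a calcification inhibitor, had 363 and 341 against 0.176 and 0.266 and was 1671-fold higher in fibroblasts (95% counting interval 462 to 13809.8). Spon1, Upk1b and Bmper completed the 10 largest differences with Eln and Col13a1, at -7.92, -7.81 and -7.79.

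Elastic fibre genes were higher in fibroblasts in 15 of 19 cases and in epithelium in 3. Eln, elastin itself, had 799.5 and 754 joint CPM against 1.41 and 3.46 (-7.89 ± 0.42). Fbn1, the main microfibril protein, had 309 and 391 against 0.176 and 2.39, and the microfibril-bound Mfap4 1729.7 and 2109 against 11.6 and 13.8. Fbln5, which helps elastin assemble, was high in both cell types, with 5750.4 and 4598 in fibroblasts and 2017 and 1681 in epithelium (-1.48 ± 0.17). Lox, the crosslinking oxidase, had 728 and 895 and 135 and 99.2 (-2.79 ± 0.21). The 3 genes higher in epithelium were Fbn2, the developmental fibrillin (18.7 and 21 against 3.55 and 7.17), Ltbp3 (65.4 and 73.9 against 28.7 and 37.1) and Efemp1 (4.58 and 9.57 against 2.54 and 1.99). Fbn2 was not called with 1 library left out, at adjusted p = 0.064 without fibroblast library 1. Efemp1 was not called with 1 library left out, at adjusted p = 0.31 without epithelial library 2, 0.066 without fibroblast library 1 and 0.14 without fibroblast library 2. Efemp2 passed on the fibroblast side but was not called with 1 library left out, at adjusted p = 0.075 without epithelial library 1, 0.15 without epithelial library 2 and 0.19 without fibroblast library 1.

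Most of the listed contractile and lipid genes that mark subsets of fibroblasts were higher in fibroblasts, with exceptions among the lipid genes. Acta2, smooth muscle actin, had 92.6 and 104 joint CPM against 10.9 and 6.38, and Tagln, an actin-binding protein of the same cells, 68.8 and 32.7 against 0.705 and 0.266. Of 11 myofibroblast genes 9 were higher in fibroblasts (median -3.40, or -4.07 with genes at their bound). Actg2 differed between the fibroblast libraries, 37.8 and 106. Of 12 lipofibroblast genes 8 were higher in fibroblasts and 2 in epithelium. Cd36, a fatty acid transporter, was one of the 2, with 186 and 178 in epithelium against 1.78 and 0.398, and Fabp5, a fatty acid carrier, 126 and 135 against 0.761 and 1.99. Plin2, the lipid droplet coat, was close between the cell types at 532 and 392 and 642 and 614 (-0.46 ± 0.16, not called with 1 library left out, at adjusted p = 0.4 without epithelial library 2 and 0.12 without fibroblast library 1). G0s2, an inhibitor of lipid breakdown, had 2175 and 1733 in fibroblasts against 72.8 and 70.7, and Limch1 2324 and 2116 against 199 and 254. Pparg, Fabp4 and Lpl of the same list were not called. Pparg had 4 and 3 reads in fibroblasts and 9 and 1 in epithelium, and Fabp4 4 and 0 with no epithelial read. Lpl had 251 and 106 reads in fibroblasts and 413 and 283 in epithelium.

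The basement membrane between the cell types was divided between them: of 24 genes tested 9 were higher in epithelium, 9 in fibroblasts and 6 were not called, with a median of 0.34. The laminin chains Lama3 and Lamb3 were epithelial. Lama3 had 61.3 and 40.1 joint CPM against 1.01 and 1.59, and Lamb3 27.7 and 32.4 against 0.254 and 0. Other laminin chains leaned to fibroblasts, with Lama4 at 931 and 629 against 3.70 and 5.58 and Lama2 at 43.6 and 35.5 with no epithelial read. Lamb1 (-2.10 ± 0.21) and Lamc1 (-1.37 ± 0.17), shared by many laminins, were present in both cell types and higher in fibroblasts. Lama5 (523 and 671 in epithelium, 491 and 502 in fibroblasts) and Lamb2 were not called.

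Collagen IV chains were on both sides too. Col4a3 (199 and 155 against 1.01 and 2.39) and Col4a4 (79.6 and 60.1 against 1.78 and 0.398), chains of the adult alveolar network, were epithelial. Col4a5 was higher in epithelium by 1.28 ± 0.35 (not called with 1 library left out, at adjusted p = 0.082 without epithelial library 1). Col4a1, which forms the common network with Col4a2, had 2097 and 1470.0 in epithelium and 1925 and 1546 in fibroblasts and was not called. Col4a2 was higher in epithelium by 0.65 ± 0.16. The linker proteins nidogen 1 and 2 were higher in fibroblasts: Nid1 had 140.3 and 169 against 0.352 and 1.06 and Nid2 67 and 51.8 against 0 and 1.06. The proteoglycan agrin (Agrn) was epithelial, 118 and 114 against 17 and 16.7. Frem1 and Frem2, relatives that anchor epithelium to mesenchyme, lay on opposite sides, Frem1 at 232 and 300.0 in fibroblasts against 0.705 and 1.60 and Frem2 at 11.8 and 15.7 in epithelium against 2.03 and 1.99. Col18a1 (-3.13 ± 0.25) and the integrin ligand Npnt (-2.50 ± 0.16) were higher in fibroblasts, and Col4a6, Hspg2 and Fras1 were not called.

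The integrin receptors of these proteins were likewise divided, 6 of 14 higher in epithelium and 6 in fibroblasts. Itga3, a laminin receptor chain, had 132 and 124 joint CPM in epithelium against 5.07 and 2.79, and Itga6, its relative, 121 and 41.5 against 3.55 and 1.59, with the epithelial libraries far apart. Itgb6, which activates latent TGF-beta, was 66.5-fold higher in epithelium (95% counting interval 22.5 to 324). Itga9 (2.59 ± 0.33) and Itga7 (6.87 and 4.79 against 0 and 0.398) were also higher in epithelium, as was Itgav (0.65 ± 0.20, not called with 1 library left out, at adjusted p = 0.055 without epithelial library 1, 0.063 without epithelial library 2 and 0.097 without fibroblast library 1). Itga8, the receptor for nephronectin (Npnt), had 622 and 483 in fibroblasts against 0.529 and 3.19 (-7.76 ± 0.51). Itga1, a collagen receptor chain, had 105 and 104 against 1.59 and 3.19. Itgb1, the common partner, was high in both and higher in fibroblasts (-1.04 ± 0.17), with Itgb5 (-2.89 ± 0.20), Itga5 (-1.82 ± 0.40) and Itgb8 (6.60 and 7.57, no epithelial read) on the same side. Itga4 and Itgb3 were not called.

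**Figure D3:**
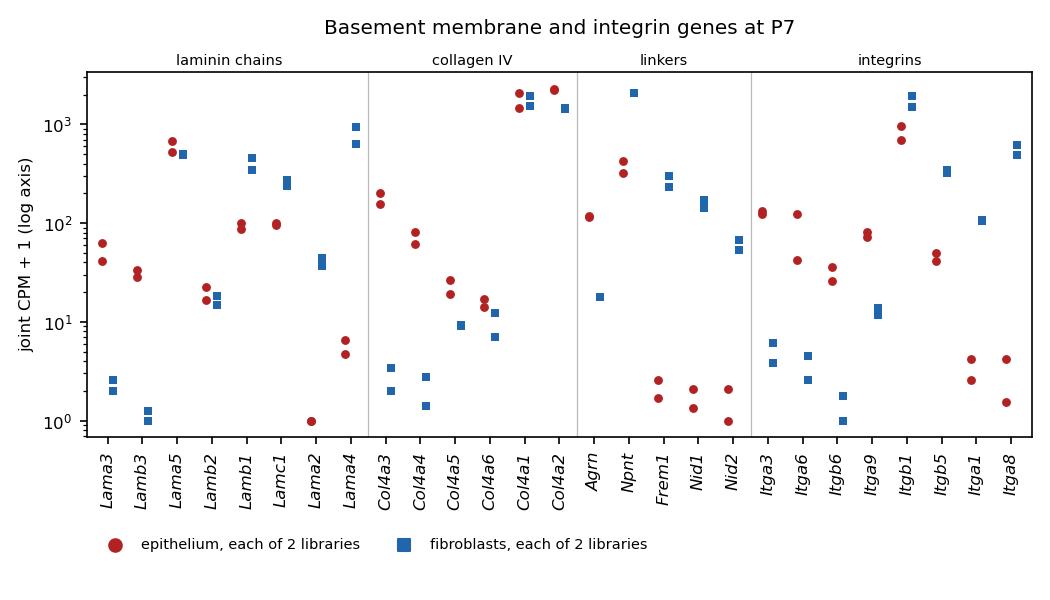
Level of basement membrane and integrin genes in each P7 library, in joint CPM + 1 on a log axis; red circles are the 2 epithelial and blue squares the 2 fibroblast libraries. Lama3, Lamb3 and Col4a3 stand higher in epithelium, Lama4, Nid1, Frem1 and Itga8 higher in fibroblasts, and the cell types overlap for Col4a1 and Lamb2.

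In the hedgehog pathway a secreted ligand binds the receptor Patched, which frees Smoothened and activates the Gli factors, and Patched, Hhip and Gli1 are themselves raised by the signal. The ligand was higher in epithelium, and most of the receptors and effectors in fibroblasts. Shh (chromosome 5, 28456815 to 28467256, minus strand, GRCm38) had 714 and 521 joint CPM in epithelium and 0 and 1.99 in fibroblasts (8.46 ± 0.46, adjusted p = 4.0e-12). The other ligands Ihh and Dhh were too low to be tested. Of 7 receptors and modulators 6 were higher in fibroblasts. Hhip, which traps the ligand, had 193 and 254 against 0.705 and 0.798. Ptch1 differed less, with 60.4 and 70.5 against 19.2 and 19.7 (-1.70 ± 0.26). The co-receptors Boc (18.3 and 12 against 0.352 and 0) and Gas1 (9.39 and 6.77, no epithelial read) were higher in fibroblasts, and Cdon was not called. Smo was called at -1.38 ± 0.43 but was not called with 1 library left out, at adjusted p = 0.076 without epithelial library 1, 0.051 without epithelial library 2 and 0.23 without fibroblast library 2. Gli1, a direct target, had 25.4 and 19.9 and no epithelial read, at least 73.1-fold higher, and Gli2 had 27.7 and 43.8 against 0.176 and 0.266.

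For platelet-derived growth factors the ligand and receptor lay on opposite sides. Pdgfa, the ligand that drives septal myofibroblasts, had 39.6 and 46.3 joint CPM in epithelium against 4.82 and 6.38 (2.74 ± 0.31, adjusted p = 3.6e-07), and Pdgfb had 28.4 and 17.5 with no fibroblast read. The receptor Pdgfra had 6.34 and 9.56 in fibroblasts against 0 and 1.60 (-2.45 ± 0.46). Pdgfrb, a pericyte receptor, was at or below 1.27 in every library and was not called, nor was Pdgfc. Pdgfd was at least 3.90-fold higher in fibroblasts but was not called with 1 library left out, at adjusted p = 0.065 without epithelial library 1, 0.064 without epithelial library 2 and 0.097 without fibroblast library 2.

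Fibroblast growth factors were found on both sides. Fgf2 (176 and 145 against 1.23 and 0.266), Fgf7 (38.6 and 18.7 against 0 and 0.266) and Fgf10 (34 and 40.2 against 0.352 and 0) were fibroblastic. Fgf7 and Fgf10 are the ligands of the epithelial splice form of Fgfr2, and Fgfr2 was epithelial, 78 and 111 against 6.85 and 15.5, although 3' tags do not separate its forms. Fgf1 (33.5 and 38.3 against 0.507 and 0) and Fgf18 (13.4 and 17.5 against 3.81 and 3.19) were epithelial. The receptors Fgfr1 (352 and 314 against 12 and 19.7), Fgfr3 (43.1 and 55.8 against 9.16 and 10.9) and Fgfr4 (10.4 and 7.17 against 0.176 and 0) were higher in fibroblasts. Feedback genes of the pathway were split: Etv5 was epithelial (4.45 ± 0.37), Spry4 fibroblastic (-2.67 ± 0.28), Spry2 and Dusp6 epithelial by smaller margins. Spry2 was not called with 1 library left out, at adjusted p = 0.075 without epithelial library 1 and 0.067 without fibroblast library 2. Dusp6 was not called with 1 library left out, at adjusted p = 0.078 without epithelial library 1 and 0.12 without fibroblast library 2.

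Wnt ligands differed by member. Wnt3a (54.6 and 25.8, no fibroblast read) and Wnt7b (3.0 and 4.52, none) were epithelial, as was Wnt7a (3.70 and 1.33, none), which was not called with 1 library left out, at adjusted p = 0.13 without epithelial library 1. Wnt2 (46.2 and 37.5 against 1.06 and 0) and Wnt5a (83.7 and 57.8 against 0.352 and 1.86) were fibroblastic. The R-spondin Rspo2, which amplifies Wnt signals, had 19.8 and 29.5 in fibroblasts and no epithelial read, and Rspo3 (5.84 and 2.79 against 0.176 and 1.60) was not called with 1 library left out, at adjusted p = 0.24 without epithelial library 1 and 0.17 without fibroblast library 1. Receptors were divided, 5 of 15 on either side. Fzd5 (492 and 380.2 against 48.7 and 37.1) and Fzd6 (11.3 and 14.9, no fibroblast read) were epithelial. Fzd4 (129 and 98.8 against 11.6 and 19.1), Ror2 (105 and 58.6 against 6.52 and 4.25), Lgr4, an R-spondin receptor (44.4 and 41 against 7.22 and 6.11), and Fzd3 (-1.36 ± 0.27) were fibroblastic. Ror1 was higher in epithelium (1.63 ± 0.33, and moved to 1.05 without fibroblast library 1). Of the target genes, Nkd1 was higher in epithelium (1.74 ± 0.33) and Tcf7 in fibroblasts (-1.98 ± 0.44), and Axin2, at 80.9 and 64.9 in fibroblasts and 42.8 and 38.8 in epithelium, was not called with 1 library left out, at adjusted p = 0.097 without epithelial library 1, 0.17 without epithelial library 2, 0.21 without fibroblast library 1 and 0.051 without fibroblast library 2. The antagonist Dkk3 had 45.9 and 47.4 against 0.176 and 0.532, and Sfrp1 12.7 and 5.98 against 0.881 and 0.266.

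Ligands of the EGF family were epithelial in 5 of 8 cases and fibroblastic in none. Hbegf had 354 and 226 joint CPM against 23.3 and 9.16, Btc 103 and 104 against 11.2 and 4.78 and Tgfa 21 and 21.3 against 0.254 and 0, while Areg and Nrg1 had no fibroblast read. Their receptors lay on the same side: Egfr had 46.5 and 35.6 against 10.1 and 8.37, Erbb3 12 and 11.4 with no fibroblast read, and Erbb2 differed by 1.35 ± 0.41 (not called with 1 library left out, at adjusted p = 0.063 without epithelial library 1, 0.055 without epithelial library 2 and 0.062 without fibroblast library 1). Hepatocyte growth factor ran the other way. Hgf had 15.7 and 9.96 in fibroblasts and no epithelial read, and its receptor Met had 190.3 and 213 in epithelium against 1.78 and 5.98 (5.52 ± 0.38). Insulin-like growth factor 1 (Igf1) was fibroblastic, 176 and 201 against 0.705 and 0.798, as was Igf2r (-1.67 ± 0.16), while the receptors Igf1r and Insr and the ligand Igf2 were not called. Of the binding proteins Igfbp2 was epithelial (16.6 and 10.9 against 0 and 0.797), and Igfbp3, Igfbp4 and Igfbp5 were fibroblastic (-3.72, -6.51 and -2.15).

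Of 5 Notch ligands tested 3 were higher in epithelium, and Dll1 and Dll3 were not called. Jag1 had 50.9 and 44.4 joint CPM against 3.55 and 4.38, Jag2 28.7 and 19.4 against 0.507 and 0 and Dll4 49.2 and 35.1 against 5.07 and 2.39, and Notch2 was higher in epithelium by 0.91 ± 0.17. Notch targets and modifiers were split, with 2 of 6 tested higher in epithelium, 3 in fibroblasts and 1 not called. Heyl, a Notch target on the fibroblast side, had 12.7 and 6.77 in fibroblasts and no epithelial read. For BMP and TGF-beta, Bmp2 was epithelial (15.9 and 7.71 against 1.27 and 0), and Bmp5 (21.6 and 27.5 against 3.88 and 4.79), Gdf10 (8.37 and 8.77, no epithelial read), Tgfb3 (-0.99 ± 0.26) and Tgfb2 (-0.92 ± 0.24) were fibroblastic. Tgfb2 was not called with 1 library left out, at adjusted p = 0.083 without epithelial library 2. Of 10 receptors 5 were higher in fibroblasts and none in epithelium, led by the co-receptors Tgfbr3 (-4.10 ± 0.39) and Eng (-3.63 ± 0.52) and the receptor Acvrl1 (16.5 and 17.9 against 0.176 and 0.532). The secreted modulator Fstl1 had 5566 and 5910.4 against 359.6 and 367.

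Vascular signals were found on both sides. Vegfa had 245 and 155 joint CPM in epithelium against 84 and 80.5 (1.24 ± 0.23). Figf, the lymphatic factor VEGF-D, had 2205 and 2116 in fibroblasts against 15.3 and 12.8 (-7.17 ± 0.23, adjusted p = 9.3e-16), and Angpt1, a vessel-stabilising ligand, 43.4 and 31.1 with no epithelial read. Guidance cues were also split. Sema3e had 263 and 178 in epithelium and no fibroblast read, at least 492-fold higher, while Slit2 (415 and 471 against 7.58 and 16.5) and its receptor Robo2 (151 and 108 against 0.705 and 3.19) were fibroblastic. Of 13 ligands tested 5 were higher in epithelium and 6 in fibroblasts, and of 21 receptors 8 and 8.

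**Figure D4:**
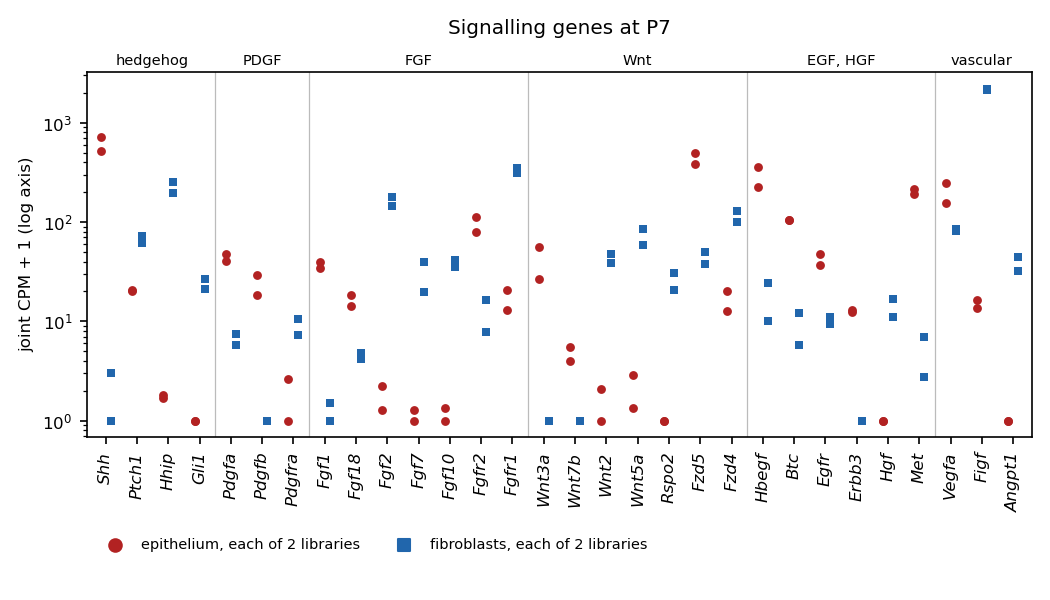
Level of signalling genes in each P7 library, in joint CPM + 1 on a log axis; red circles are the 2 epithelial and blue squares the 2 fibroblast libraries. Shh, Pdgfa, Wnt3a, Hbegf and Met stand higher in epithelium, and Hhip, Gli1, Fgf10, Hgf, Figf and Angpt1 higher in fibroblasts.

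Immune genes were divided by class. All 7 tested genes of MHC class II presentation were higher in epithelium (median 5.81, or 6.01 with Ciita at its bound). Of the leukocyte list in these epithelial libraries, Ptprc, Fcer1g, Coro1a and S100a8 had no read, while Lcp1 had 207 and 101 reads, Csf1r 103 and 44, C1qa 19 and 0 and Cd68 10 and 2. Their part in the class II result was not tested. H2-Eb1 had 2157 and 2559 joint CPM against 12.7 and 6.38, H2-Aa 75.2 and 80.8 against 0.507 and 0 and Cd74, the invariant chain, 385 and 433 against 0.507 and 0. Ciita, the coactivator of the class, had 33.1 and 33 with no fibroblast read. H2 genes are near relatives, so reads may be split among them. Of 4 class II genes with a RefSeq promoter 2 held the letters CTGATTGG, a Y-box of this gene class, on either strand in the 250 bases before the start, against 5.84% of all tested genes. They are shown with the match in capitals, over chr17:34287824-34288023 (minus strand) for H2-Aa and chr17:34305667-34305866 (plus strand) for H2-Eb1.
H2-Aa: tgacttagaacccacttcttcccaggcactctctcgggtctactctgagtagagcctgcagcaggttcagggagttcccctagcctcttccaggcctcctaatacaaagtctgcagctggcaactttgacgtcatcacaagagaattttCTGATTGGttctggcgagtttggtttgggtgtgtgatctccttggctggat
H2-Eb1: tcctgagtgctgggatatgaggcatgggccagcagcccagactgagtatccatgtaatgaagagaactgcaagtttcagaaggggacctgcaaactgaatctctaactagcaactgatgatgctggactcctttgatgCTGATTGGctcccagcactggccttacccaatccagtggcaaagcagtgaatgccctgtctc

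Class I genes differed less. H2-K1 was higher in epithelium (3.83 ± 0.27), with H2-D1 (1.29 ± 0.30) and Tapbp (1.64 ± 0.26), while B2m, Tap1 and Tap2 were not called. Complement components were fibroblastic in 8 of 12 cases: Serping1, the C1 inhibitor, had 2842 and 2824 joint CPM against 9.87 and 14.6 and C7 63.4 and 60.6 against 0.176 and 0.798. Hc was the epithelial exception, with Cd55 (1.10 ± 0.29, not called with 1 library left out, at adjusted p = 0.059 without fibroblast library 1), and C3 was not called. Chemokines and cytokines were split 8 to 9 of 19. Cxcl15 (1425 and 1217 against 2.28 and 2.79), Cxcl16 (773 and 656 against 94.4 and 90.1) and Csf2, the growth factor of alveolar macrophages (105 and 105 against 0.761 and 0.797), were epithelial. Ccl2 (27.1 and 37.5, no epithelial read), Lif (143 and 192 against 27.3 and 19.4) and Kitl (51.8 and 46.2 against 7.75 and 7.71) were fibroblastic.

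Matrix proteases leaned to fibroblasts. Mmp2 had 133 and 107 joint CPM against 0.705 and 1.33, and Mmp14, which activates it, 1686 and 1413 against 185 and 192. Of 16 proteases and inhibitors 11 were higher in fibroblasts. Timp3 (1.48 ± 0.21) and Mmp15 (3.83 ± 0.42) were the 2 higher in epithelium. Retinoid synthesis and response genes were split, with 6 of 13 tested higher in fibroblasts, 3 in epithelium and 4 not called. Aldh1a2, a synthesising enzyme, had 14.2 and 18.7 in fibroblasts against 0 and 0.266. Its relative Aldh1a3 had 33 and 33 reads in fibroblasts and 1 and 3 in epithelium. Aldh1a1 lay the other way, with 40 and 44 reads in epithelium and 9 and 2 in fibroblasts. Calls of Aldh1a1 and Aldh1a3 are not reported here.

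Few proliferation genes passed the test. Mki67, a marker of cycling cells, had 12.2 and 15.2 joint CPM in epithelium and 12.9 and 15.1 in fibroblasts (-0.04 ± 0.42, adjusted p = 0.96). Of 25 cell cycle genes tested 1 was called, Ccnb2, which was higher in fibroblasts (21.3 and 16.3 against 5.64 and 5.32) and was not called with 1 library left out, at adjusted p = 0.058 without epithelial library 1, 0.07 without epithelial library 2 and 0.096 without fibroblast library 1, where 35.5% of all genes were called. The SEs of these genes ran from 0.30 to 0.58, so a call missed here does not show equal levels. Immediate early genes, which tissue digestion is known to raise, were abundant in both. Fos had 4352 and 3792 in fibroblasts and 2066 and 1425 in epithelium (-1.24 ± 0.19), and Ier2 3849 and 3118 and 3803 and 3065 (-0.02 ± 0.21, not called). Of 19 such genes 3 were higher in epithelium and 7 in fibroblasts, where 19.6% and 15.8% of all tested genes were. The part of immediate early genes in the other differences was not tested.

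Imprinted genes lay on both sides. The maternally expressed RNAs Meg3 (922 and 709 against 90.6 and 106) and Rian (554 and 509 against 108 and 77.7) and their paternally expressed neighbour Dlk1 (20.8 and 26.1 against 0.761 and 0) were epithelial. H19 (71.3 and 44.2 against 2.82 and 0), Mest (568 and 526 against 9.16 and 12.2), Zim1 (44.7 and 29.1 against 0.705 and 0.266) and Peg3 (-2.23 ± 0.24) were fibroblastic. Of 13 tested 4 were higher in epithelium and 7 in fibroblasts.

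To find what set P7 apart, the P7 difference was compared with the mean of the same difference at E18.5, P0.5, P2 and P28, in the same fit and with the same P7 libraries. There were 519 genes (3.88% of 13386) whose difference departed from that mean at an adjusted p under 0.05, 256 toward epithelium (1.91%) and 263 toward fibroblasts (1.96%). The count depends on each P7 library: it was 216 without epithelial library 1, 252 without epithelial library 2, 245 without fibroblast library 1 and 392 without fibroblast library 2. In all 4 of those fits 122 genes kept their call. A shift can come from either cell type. Among the 256, both P7 epithelial libraries lay above the 8 other epithelial libraries for 58 genes, both P7 fibroblast libraries lay below the 8 other fibroblast libraries for 60, both held for 7, and neither for 131. Among the 263, both P7 epithelial libraries lay below the 8 other epithelial libraries for 95 genes. Both P7 fibroblast libraries lay above the 8 other fibroblast libraries for 69, both held for 4, and neither for 95.

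The gene furthest toward epithelium was Wipf3 (chromosome 6, 54429603 to 54503768, plus strand, GRCm38), whose product binds the actin regulator WASP. Epithelium stayed between 32 and 104 joint CPM at the 5 stages. Fibroblasts had 64.9 and 80.2 at E18.5 and 186 and 175 at P0.5, then 5.37 and 1.85 at P2 and 0.761 and 0 at P7, and again 31 and 81.9 at P28. The P7 difference departed from the other stages by 5.56 ± 0.50 (adjusted p = 1.7e-06). Of the 10 genes furthest toward epithelium with at least 50 joint CPM in some group, 8 shared a low point of this kind, with both fibroblast libraries at P7 below all 4 at P0.5 and P28. They were Wipf3, Apoe, Pappa, Inmt, Galnt15, Jade2, Crispld2 and Smoc2, with shifts of 2.59 to 5.56. Over all 256 genes 156 (60.9%) had it, and 11.5% of all 13386 genes tested. A low fibroblast value at P7 itself moves the difference toward epithelium, so nothing is read from these counts. Inmt, a methyltransferase of lipid-bearing fibroblasts, had 292 and 336 at P0.5, 13.8 and 9.52 at P2, 6.85 and 5.18 at P7 and 720.2 and 877 at P28 in fibroblasts, with no epithelial read at P7. It was called toward epithelium on the log2(joint CPM + 1) scale, but on recovered reads the shift was -0.27 in edgeR (adjusted p = 0.85) and -0.09 in DESeq2 (adjusted p = 0.99). Galnt15 and Crispld2, also near 0 in epithelium, were not called in edgeR (adjusted p = 1 and 0.31) or DESeq2 (0.47 and 0.34). For all 8 genes both P2 fibroblast libraries also lay below the 4 of P0.5 and P28, so the low point was not that of P7 alone. Apoe, a lipid carrier, had 26.6 and 15.9 in fibroblasts at P7 against 125 and 133 at P28, and in epithelium 48.6 and 31.1 at P7 against 8.26 and 9.98 at P2.

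Glucocorticoid-responsive genes shifted toward epithelium as well. Of 10 tested, 5 shifted toward epithelium at P7 and none toward fibroblasts, where 1.91% of all genes shifted toward epithelium. Zbtb16 had 384 and 391 in fibroblasts at P0.5, 22.2 and 28.6 at P2, 22.3 and 17.5 at P7 and 1125 and 1040.4 at P28, and in epithelium 28.4 and 21 at P7 and 291 and 321 at P28. At P7 itself it did not differ beyond the spread between the cell types (0.29 ± 0.20), and the shift was 1.45 ± 0.22 (adjusted p = 6.4e-04). Cebpd shifted by 1.82 ± 0.27. Klf9 (1.21 ± 0.26) was not called with 1 library left out, at adjusted p = 0.067 without epithelial library 1 and 0.057 without epithelial library 2. Errfi1 (1.32 ± 0.29) was not called with 1 library left out, at adjusted p = 0.071 without epithelial library 1, 0.055 without epithelial library 2 and 0.13 without fibroblast library 1. Fkbp5 (1.64 ± 0.40) was not called with 1 library left out, at adjusted p = 0.24 without epithelial library 1, 0.063 without fibroblast library 1 and 0.11 without fibroblast library 2.

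Other shifts went with epithelial values that were higher at P7 than at P2. Slit3 (chromosome 11, 35121224 to 35708507, plus strand, GRCm38), a guidance ligand of fibroblasts, had 43.9 and 64.6 joint CPM in epithelium at P7 against 7.83 and 3.33 at P2 and 2.47 and 5.79 at P28. Fibroblast levels of Slit3 were 188 and 262 at P7, 193 and 139 at P2 and 352 and 333 at P28. The difference at P7 was still toward fibroblasts (-2.04 ± 0.37) but smaller than at the other stages by 3.25 ± 0.41 (adjusted p = 7.3e-05). Igfbp2, a mark of mature type 1 cells, had 0.87 and 2.72 in epithelium at P2, 16.6 and 10.9 at P7 and 8.47 and 13.2 at P28, a shift of 3.01 ± 0.51 that was not called against P2 and P28 alone (adjusted p = 0.067). Adamts1, a matrix protease, had 31.3 and 31.5, 89.9 and 90.7 and 40.6 and 52.9 at the same stages (1.82 ± 0.22). Tgfa shifted by 2.56 ± 0.45 and the semaphorin co-receptor Nrp1 by 1.52 ± 0.18, and Sema3e (1.94 ± 0.50) was not called with 1 library left out, at adjusted p = 0.23 without epithelial library 1, 0.067 without epithelial library 2, 0.11 without fibroblast library 1 and 0.095 without fibroblast library 2.

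MHC class II genes in epithelium at P7 lay between P2 and P28. Cd74 had 19.7 and 15.2 joint CPM at E18.5, 22.4 and 15.5 at P0.5, 119 and 97.7 at P2, 385 and 433 at P7 and 907 and 1075 at P28, with 0.507 and 0 in fibroblasts at P7 and 6.37 and 22.8 at P28. H2-Aa had 18.3 and 24.8 at P2, 75.2 and 80.8 at P7 and 269.5 and 323 at P28. Of 7 tested class II genes 5 shifted toward epithelium at P7, by 2.25 to 3.28, where 1.91% of all tested genes did. Cd74 and H2-Aa kept the call in all 4 fits with 1 library left out, although H2-Aa was not called against P2 and P28 alone (adjusted p = 0.26). On recovered reads none of the 5 was called: adjusted p was 1 for Cd74, 0.88 for H2-Aa, 1 for H2-Ab1, 0.9 for H2-DMb1 and 1 for Ciita in edgeR. In DESeq2 it was 0.087, 0.62, 0.2, 0.73 and 0.34 in the same order. H2-Ab1 was not called with 1 library left out, at adjusted p = 0.052 without epithelial library 2 and 0.057 without fibroblast library 1. H2-DMb1 was not called with 1 library left out, at adjusted p = 0.067 without epithelial library 1, 0.056 without epithelial library 2 and 0.073 without fibroblast library 2. Ciita was not called with 1 library left out, at adjusted p = 0.091 without epithelial library 1, 0.08 without epithelial library 2, 0.074 without fibroblast library 1 and 0.062 without fibroblast library 2. The leukocyte sum in epithelium was lower at P7 than in every epithelial library of the other stages, with the values below, and the part of leukocyte RNA in these shifts was not tested.

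Toward fibroblasts, 7 genes among the 10 furthest out are leukocyte genes at or near 0 at P7: Il1b, Tyrobp, Clec4n, Ccl5, Fmnl1, Laptm5 and Slfn2. Tyrobp, a signalling adaptor of myeloid cells, had 29.8 and 99.6 joint CPM in epithelium at E18.5, 97.7 and 72.5 at P0.5, 60.5 and 230.5 at P2, 0.176 and 0 at P7 and 642 and 614 at P28. Clec4n and Slfn2 had no read in the 4 P7 libraries, and no gene of the 7 was called in the comparison of the cell types at P7. The summed level of the leukocyte list was 28.4 to 43.3 in epithelium at P7 and 154 to 1652 in the 8 other epithelial libraries. For these genes it is epithelial values of other stages that are high. For Ccl5 these were P2 (12.6 and 60.8) and P28 (795 and 674), with 5.71 and 0 at E18.5 and no read at P0.5. Ccl5 was not called with 1 library left out, at adjusted p = 0.067 without epithelial library 1, 0.06 without epithelial library 2 and 0.1 without fibroblast library 2. Laptm5 was not called with 1 library left out, at adjusted p = 0.11 without epithelial library 1, 0.16 without epithelial library 2 and 0.22 without fibroblast library 1. Slfn2 was not called with 1 library left out, at adjusted p = 0.09 without epithelial library 1, 0.08 without epithelial library 2, 0.081 without fibroblast library 1 and 0.066 without fibroblast library 2. In edgeR Fmnl1 was the only one of these 7 called, with adjusted p of 0.093 for Tyrobp, 1 for Il1b, 1 for Clec4n, 1 for Ccl5, 0.53 for Laptm5 and 1 for Slfn2.

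Genes outside the leukocyte list shifted toward fibroblasts too. Palmd, a protein of cell processes, was called higher in fibroblasts at P7, although its difference was toward epithelium at E18.5 (0.74), P0.5 (2.17) and P2 (1.98). It had 4.36 and 1.32 joint CPM in fibroblasts at P2, 57.9 and 54.6 at P7 and 45.4 and 37.8 at P28, while epithelium had 6.96 and 23.3, 4.23 and 3.46 and 34.2 and 35.0. Its shift was -4.73 ± 0.63 (adjusted p = 1.4e-04). Rspo2 reached its highest level in fibroblasts at P7: 3.51 and 5.64 at E18.5, 5.48 and 7.95 at P0.5, 11.4 and 10.8 at P2, 19.8 and 29.5 at P7 and 0 and 0.787 at P28 (-2.49 ± 0.48). With no epithelial read at P7, its shift was not called in edgeR (adjusted p = 1) or DESeq2 (adjusted p = 0.11). Crabp1, a retinoic acid carrier, had 1.01 and 1.59 at P2, 15 and 8.37 at P7 and 1.45 and 0 at P28 (-2.50 ± 0.52), and was not called with 1 library left out, at adjusted p = 0.073 without epithelial library 1 and below the filter on low levels without fibroblast library 1 and without fibroblast library 2. In edgeR its adjusted p was 0.99. Prom1 had 92 and 103, 323 and 301 and 152 and 83.8 (-2.23 ± 0.44), and was not called with 1 library left out, at adjusted p = 0.078 without epithelial library 1. Zeb2 stayed high in fibroblasts at every stage, but in epithelium was 4.40 and 3.72 at P7, 20.9 and 19.4 at P2 and 35.3 and 53.5 at P28 (-2.28 ± 0.23, adjusted p = 9.1e-06). Zeb2 is also expressed by leukocytes, whose summed markers were also lowest in epithelium at P7, and their part was not tested.

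Msln, the mesothelial surface protein mesothelin, was lower at each later stage in epithelium and highest at P7 in fibroblasts. In epithelium it had 418 and 419 joint CPM at E18.5, 235 and 195 at P0.5, 122 and 81.1 at P2, 32.8 and 8.51 at P7 and 1.06 and 3.31 at P28. In fibroblasts it had 8.65 and 8.87 at E18.5, 10.1 and 4.70 at P0.5, 0.336 and 3.44 at P2, 44.4 and 38.7 at P7 and 33.9 and 20.9 at P28. At P7 the difference was -1.24 ± 0.52 and did not pass (adjusted p = 0.071), with the shift at -4.33 ± 0.58.

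Several matrix genes also shifted. Npnt was 940.1 and 1129 joint CPM in fibroblasts at P2 and 2073 and 2092 at P7, against 373 and 408 and 429 and 317 in epithelium (-1.23 ± 0.18, but adjusted p = 0.91 against P2 and P28 alone). Lama5 in epithelium was 2356 and 2716 at E18.5 and 523 and 671 at P7, where it no longer differed beyond the spread from fibroblasts (-1.48 ± 0.23). Fbln5 in fibroblasts was highest at P7, 5750.4 and 4598 against 2883 and 3046 at P2 and 1172 and 1094 at P28 (-1.28 ± 0.19, but adjusted p = 0.056 against P2 and P28 alone). Lox moved toward epithelium (2.2 ± 0.23) as fibroblasts went from 6188 and 6875 at E18.5 to 728 and 895 at P7, and Lamb1 by 1.77 ± 0.23.

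**Figure D5:**
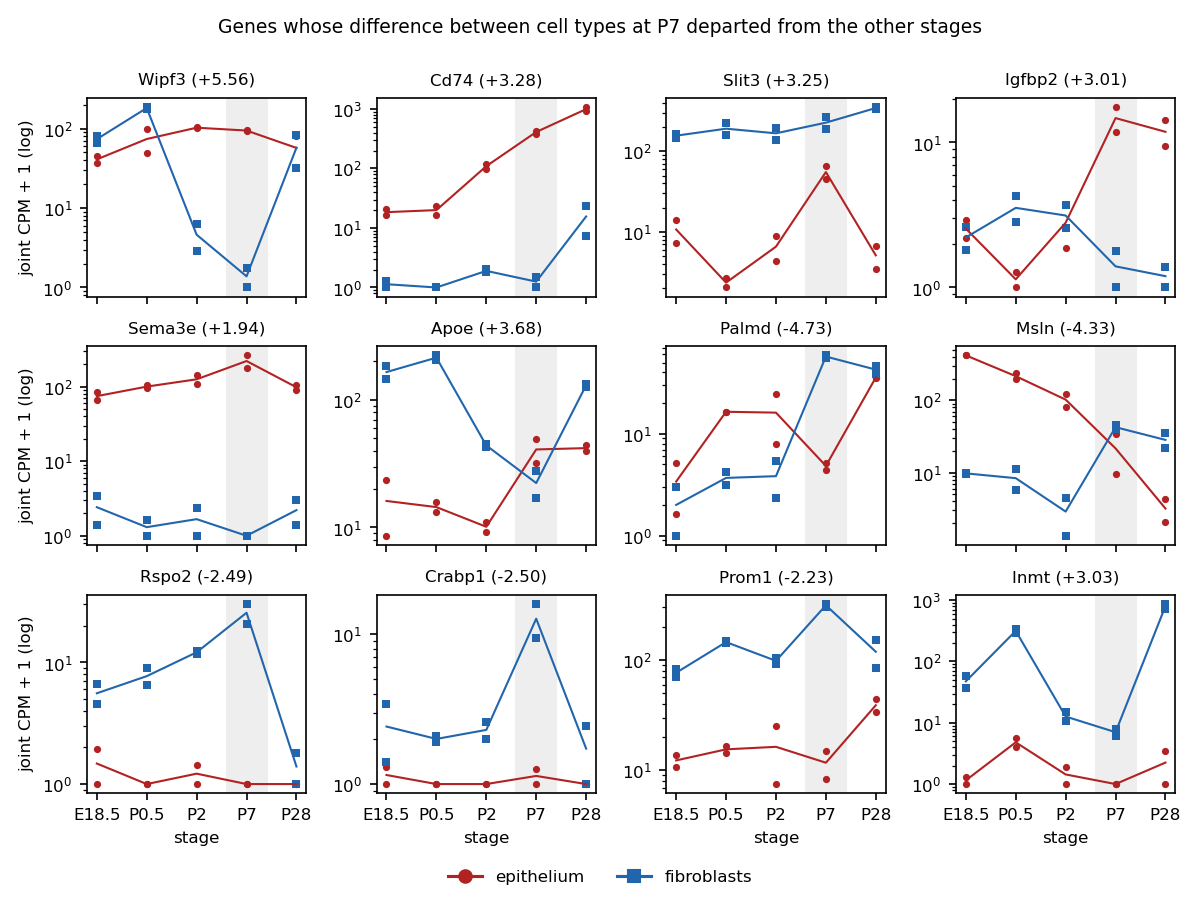
Level of 12 genes in each library at E18.5, P0.5, P2, P7 (grey band) and P28, in joint CPM + 1 on a log axis; red circles are epithelium, blue squares fibroblasts, lines join the means of 2 libraries, and the number after each name is the shift of the P7 difference against the other stages (log2). Wipf3 and Inmt show the low point of fibroblasts at P2 and P7, Slit3 and Igfbp2 the epithelial level at P7, and Rspo2 and Crabp1 the fibroblast high point at P7.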

How the data were processed

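Polyadenylated RNA of sorted mouse lung cells was amplified, made into 3'SAGE-seq libraries and read on an Ion Proton sequencer, per the labels' protocols. Bowtie2 2.2.5, R 3.4.0 and mm10 are named in the submitters' processing notes. The annotation, the strand setting and the normalisation are not given in the sources used here, so overlapping and antisense genes cannot be told apart. The deposited files hold 1 normalised signal value per gene. In every library all values were whole multiples, within 0.01 reads, of the value of 1 read, so reads were recovered by division.

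Reads over the 20004 genes listed for both cell types were scaled with TMM (edgeR 4.0.16) to joint CPM for the 20 libraries of the 5 shared stages. Genes with at least 3 joint CPM in at least 2 libraries (13386) were tested in R 4.3.3 with limma 3.58.1 and its trend option. Values were log2(joint CPM + 1), a pseudocount that understates the change of low genes. All 20 libraries shared 1 estimate of the spread (10 residual degrees of freedom). P-values were adjusted over all tested genes by Benjamini-Hochberg with a threshold of 0.05. The P7 comparison and its contrast with the other 4 stages share the 4 P7 libraries. The fit was tested on simulated data with 100 genes changed 4-fold and 100 changed 2-fold. For the P7 difference 65 and 21 of these were called in the right direction, and for the shift 45 and 14. In each case 2 unchanged genes were called. No other gene was set to differ in the simulation, whereas 4746 genes were called at P7 in the data and 519 shifts. The adjusted p depends on how many genes differ, so these recoveries do not carry over to the data. Real changes of these sizes can be missed, at a rate not measured here. Replicates within a P7 group differed by more than sampling noise and were counted separately.

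Alternatives were edgeR and DESeq2 1.42.0 on recovered reads, other scalings, pseudocounts and filters, a replicate block, each P7 library left out, a fit on the P7 libraries alone, and fewer comparator stages. The rule for named genes took the sort genes, the 10 largest called changes in each direction with at least 50 joint CPM, leaving out predicted genes and pseudogenes, and members of 64 gene lists. For signalling, matrix and transcription factor lists the rule takes every member, and for other lists the first 4 and up to 5 called with the smallest p. Not every such member is printed: the others are given by their counts, and some listed genes are not reported here. Members and lists were chosen with earlier results of these data known. Coordinates are of GENCODE vM21 (GRCm38), and promoters of RefSeq. The fibroblast library of P56 was not used here.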

Additional observations from a re-analysis of the deposited data

Results flagged for a closer look

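Among the genes named in the text, the difference between epithelium and fibroblasts at P7 departed from its mean at the other stages, by a limma test of the difference itself at an adjusted p under 0.05, for the genes that follow. Values are shifts in log2(joint CPM + 1). Toward epithelium the shifts were those of Wipf3 (5.56), Apoe (3.68), Pappa (3.31), Cd74 (3.28), Slit3 (3.25), Inmt (3.03), Igfbp2 (3.01), Galnt15 (2.86), Jade2 (2.81), Crispld2 (2.59), Smoc2 (2.59), H2-Aa (2.57) and Tgfa (2.56). Next in size toward epithelium were H2-Ab1 (2.52), H2-DMb1 (2.48), Ror1 (2.32), Ciita (2.25), Sfrp1 (2.22), Lox (2.2), Dlk1 (2.15), Sox9 (2.08), Pdgfra (2.01), Sema3e (1.94), Adamts1 (1.82), Cebpd (1.82) and Meg3 (1.79). Smaller shifts to epithelium were those of Lamb1 (1.77), Fkbp5 (1.64), Rian (1.57), Spint2 (1.53), Nrp1 (1.52), Zbtb16 (1.45), Errfi1 (1.32), Ager (1.32), H2-K1 (1.23), Klf9 (1.21), Col4a1 (0.97) and Plin2 (0.93). Toward fibroblasts the shifts were those of Palmd (-4.73), Il1b (-4.64), Tyrobp (-4.51), Msln (-4.33), Clec4n (-3.79), Ccl5 (-3.74), Fmnl1 (-3.72), Laptm5 (-3.26), Slfn2 (-3.23), Mef2c (-2.80), Crabp1 (-2.50), Rspo2 (-2.49) and Upk1b (-2.46). Next in size toward fibroblasts were Dcn (-2.37), Zeb2 (-2.28), Prom1 (-2.23), Nid2 (-2.17), Ccl2 (-2.07), Aldh1a2 (-2.05), Hgf (-1.92), Cav1 (-1.77), Lama5 (-1.48), Tekt1 (-1.47), Bmper (-1.35), Mgp (-1.34) and Fbln5 (-1.28). Smaller shifts to fibroblasts were those of Col3a1 (-1.27), Mmp14 (-1.23), Npnt (-1.23), Col13a1 (-1.20) and Fstl1 (-1.11). A shift toward fibroblasts need not be a rise there. Mean Col13a1 in fibroblasts was 2383.5 joint CPM at P2 and 1684 at P7, and in epithelium 44.2 and 6.01. With 1 P7 library left out, calls were lost, and the highest adjusted p in limma is given for each gene. Without epithelial library 1 it was 0.21 for Ager, 0.23 for Aldh1a2, 0.091 for Ciita, 0.11 for Col3a1, 0.23 for Col4a1, 0.073 for Crabp1, 0.24 for Dcn, 0.24 for Fkbp5, 0.24 for H2-K1, 0.067 for Klf9, 0.056 for Mgp, 0.3 for Nid2, 0.085 for Plin2, 0.078 for Prom1, 0.23 for Sema3e, 0.09 for Slfn2 and 0.2 for Tekt1. Without epithelial library 2 it was 0.27 for Pdgfra. Without fibroblast library 1 it was 0.25 for Bmper, 0.11 for Col13a1, 0.13 for Errfi1, 0.057 for H2-Ab1, 0.13 for Hgf and 0.22 for Laptm5. Without fibroblast library 2 it was 0.08 for Ccl2, 0.1 for Ccl5, 0.073 for H2-DMb1, 0.15 for Sfrp1 and 0.065 for Sox9. In edgeR the calls lost were those of Ager, Aldh1a2, Bmper, Ccl2, Ccl5, Cd74, Ciita, Clec4n, Crabp1, Crispld2, Galnt15, H2-Aa, H2-Ab1, H2-DMb1, H2-K1, Hgf, Il1b, Inmt, Laptm5, Nid2, Pdgfra, Rspo2, Sema3e, Sfrp1, Slfn2, Tekt1 and Tyrobp. In DESeq2 the calls lost were those of Ager, Aldh1a2, Bmper, Cd74, Ciita, Clec4n, Crispld2, Galnt15, H2-Aa, H2-Ab1, H2-DMb1, H2-K1, Hgf, Il1b, Inmt, Laptm5, Rspo2, Sfrp1 and Slfn2. Against P2 and P28 alone the calls lost were those of Ager, Aldh1a2, Cav1, Ccl2, Ciita, Col13a1, Col3a1, Dcn, Fbln5, H2-Aa, H2-Ab1, H2-DMb1, Hgf, Igfbp2, Mef2c, Mgp, Mmp14, Npnt, Plin2, Ror1, Sema3e and Sfrp1. Of all 519 such genes 122 kept the call with each P7 library left out.

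Some listed genes are in the tables of 1 cell type only and entered no comparison, and they had more reads than the 3 that a count of 0 allows. Reads over the 2 epithelial libraries at P7 were those of Csf1r (147), Ocln (141), Cdhr3 (99), Foxa1 (86), Elf3 (78), Hgfac (51) and Calca (39), and of Tjp3 (33), Dnah5 (31), Dynlrb2 (24), Phlda2 (13), Aqp4 (12), Ccdc153 (10) and Sox2 (4). Reads over the 2 fibroblast libraries were those of Hoxb6 (10) and Lamc3 (7).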

How the results depend on the processing

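The count of genes called at P7 was 4746 and ran from 3784 to 4795 over all alternatives, with 2041 to 2600 higher in epithelium and 1691 to 2320 higher in fibroblasts. The count of shifts against the other stages was less stable. It rose from 519 to 818 (409 in each direction) with a pseudocount of 5, and with 1 P7 library left out it lay between 216 and 392, with 93 to 198 toward epithelium and 103 to 194 toward fibroblasts. The other alternatives gave 396 (edgeR) to 589 (filter at 10 joint CPM). The share toward epithelium was 49.3%, and over the alternatives it ran from 40.0% with total reads for scaling to 59.8% against P2 and P28 alone. Of the 519 genes edgeR called 341 and DESeq2 371. Same-numbered libraries did not deviate together: the correlation of their deviations at P7 was 0.13 and ran from -0.11 to 0.17 over the stages. With the replicate number as a block 4653 genes were called at P7 and 437 shifts. The numbers were not taken to pair the libraries. Over the named genes and all alternatives, 4206 recomputed P7 differences kept their direction and their side of the threshold, 80 lost the call and 23 gained one. Of recomputed shifts 848 kept the call and 176 lost it. Other than by leaving out a library, the P7 call was lost under at least 1 alternative for Apoe, Axin2, Cfap126, Col11a1, Efemp1, Efemp2, Insig1, Itgav, Pdgfd, Plin2, Rspo3 and Smoc2. Differences at P7 of genes that were not called changed sign, or reached 0 for C1qa and Il1b, with 1 library left out, with ranges of C1qa (0 to 2.12), Cd68 (-0.45 to 1.04), Cebpd (-0.46 to 0.23), Col4a1 (-0.23 to 0.28), Dll1 (-0.43 to 1.21), Fkbp5 (-0.57 to 0.43), Ier2 (-0.20 to 0.13), Igf2 (-0.50 to 0.35), Il1b (0 to 0.23), Laptm5 (-0.37 to 0.83), Mki67 (-0.19 to 0.11), Nfatc4 (-1.17 to 0.17), Pappa (-0.11 to 0.59), Tap1 (-0.0921 to 0.29) and Tyrobp (-1.50 to 0.12). Under other settings the sign changed for Col4a1 (-0.00596 with DESeq2 size factors), Col4a1 (-0.0607 with total reads for scaling), Fkbp5 (0.0572 with edgeR) and Fkbp5 (0.0236 with DESeq2). Shifts against the other stages that changed sign were Fstl1 (1.55 with P2 and P28 as the only comparators), Fstl1 (0.0676 with E18.5 left out), Inmt (-0.27 with edgeR), Inmt (-0.0929 with DESeq2), Mgp (0.19 with a pseudocount of 5) and Plin2 (-0.11 with P2 and P28 as the only comparators). The cause was not tested. Depth limits low genes most, where a group at 0 gives a bound only.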
